A study of Mus musculus with 31 samples.

Results

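The collagen genes of the mouse were described here in sorted T cell libraries: the 44 protein-coding genes, of 24594 genes in the count table, whose symbol is Col, a number, a and a number. The rule used symbol and biotype and no measured value, but it was chosen with earlier results of these data known. The question of the study was how regulatory T cells (Tregs) of tumor-bearing mice differ from those of healthy littermates, and these genes were described in its tumor and mammary gland libraries with the other tissues as background. The KEP mice were K14cre;Cdh1F/F;Trp53F/F on the FVB/N background, in which Cre driven by the keratin 14 promoter deletes the floxed E-cadherin and p53 genes in epithelium, and they carried mammary tumors of 225 mm2. The WT littermates were wt;Cdh1F/F;Trp53F/F, so that they bore the same floxed alleles without Cre. Tumor gave 3 KEP libraries and healthy mammary gland 4 WT libraries. The other 24 libraries, 3 for each genotype and tissue, came from blood, spleen, lung and lymph node, the last being the tumor-draining node in KEP mice. A KEP library held cells of 1 mouse, and a WT library those of 3 pooled mice. That replicates came from separate mice or pools is not stated outright, so p-values measure the spread between these libraries. The main fit took 1 spread per gene over all 31 libraries, not only over those compared. The sort kept live CD45+ CD3+ CD4+ CD8- CD25+ cells, with no FOXP3 gate and no gate on stromal or epithelial markers. The protocol names collagenase A for tumors and Liberase for lungs, and no enzyme for mammary gland. The ages of the mice are not given.

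Collagens are proteins of the extracellular matrix built from chains wound into a triple helix, and they are the main structural proteins of connective tissue. Fibril-forming collagens make the load-bearing fibers, fibril-associated collagens sit on their surface, network collagens build basement membranes under epithelium and around vessels, and type VI collagen makes beaded filaments. In mammary gland and in tumors they are known chiefly as products of fibroblasts, pericytes, endothelium and epithelium rather than of T cells.

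The sequences before the start sites of 4 members are shown as examples: Col3a1, Col5a1 and Col5a3 are fibril-forming members called higher in tumor, and Col28a1 is a member called lower. The call of Col3a1 was lost in 9 of 15 other settings and that of Col28a1 with DESeq2. Each is the 250 bases before the RefSeq start (GRCm38.p6), 5′ to 3′ on the gene's strand. Capitals mark the CCAAT box, the GC box GGGCGG and the TATA box TATAAA, each read on both strands.
Col3a1, chr1:45311288-45311537, plus strand: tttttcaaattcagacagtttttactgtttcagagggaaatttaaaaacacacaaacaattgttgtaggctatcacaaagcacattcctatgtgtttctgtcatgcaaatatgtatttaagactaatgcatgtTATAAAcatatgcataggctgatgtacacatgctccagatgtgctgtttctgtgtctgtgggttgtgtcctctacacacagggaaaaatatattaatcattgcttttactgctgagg
Col5a1, chr2:27886175-27886424, plus strand: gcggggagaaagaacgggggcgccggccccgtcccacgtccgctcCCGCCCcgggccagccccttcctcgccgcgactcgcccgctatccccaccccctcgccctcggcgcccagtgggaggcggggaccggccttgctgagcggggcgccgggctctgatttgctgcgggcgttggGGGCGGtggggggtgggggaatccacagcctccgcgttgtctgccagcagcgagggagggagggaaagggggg
Col5a3, chr9:20815068-20815317, minus strand: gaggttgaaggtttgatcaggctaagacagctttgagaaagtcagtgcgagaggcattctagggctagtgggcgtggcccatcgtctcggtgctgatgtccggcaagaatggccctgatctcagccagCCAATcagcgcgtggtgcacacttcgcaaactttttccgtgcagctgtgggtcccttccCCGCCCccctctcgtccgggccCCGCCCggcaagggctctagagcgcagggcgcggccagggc
Col28a1, chr6:8192618-8192867, minus strand: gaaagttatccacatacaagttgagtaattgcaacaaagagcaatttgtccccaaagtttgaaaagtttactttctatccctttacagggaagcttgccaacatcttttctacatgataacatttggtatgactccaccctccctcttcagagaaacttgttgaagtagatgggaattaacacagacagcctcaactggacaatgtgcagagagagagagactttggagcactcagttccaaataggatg
None of the 3 motifs was found in all 4 windows. The Col5a1 window is 76.4% G and C with 2 GGGCGG matches, the Col5a3 window 62.8% with 2 GGGCGG matches and 1 CCAAT match, the Col3a1 window 35.2% with 1 TATAAA match, and the Col28a1 window 40.4% with no match. Windows were given for 35 of the 44 members (38 windows, since some genes have several starts). Of these, 13 held CCAAT (34.2%), 22 held GGGCGG (57.9%) and 5 held TATAAA (13.2%), against 33.8%, 32.7% and 12.4% of all 32851 windows of the table. These matches describe letters, and no factor binding was measured.

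Read counts per library ran from 10727207 to 11502183 in tumor, from 12328950 to 15258958 in mammary gland and from 8154765 to 14044495 in the other tissues. The labelled cell type was checked by the summed level of 10 T cell genes, in CPM (counts scaled by the effective library size). It was 6107, 3504 and 1846 CPM in tumor replicates 1, 2 and 3 and 456, 1937, 169 and 213 CPM in mammary gland replicates 1 to 4, against 5116 to 6061 CPM in the other KEP libraries and 4869 to 6004 CPM in the other WT libraries. T cell transcripts were thus at a small part of their usual level in mammary gland replicates 1, 3 and 4, and no T cell gene was at 0 in any of these 7 libraries. Tumor replicate 3 stood apart from the other tumor libraries in epithelial transcripts (2017 CPM over 9 genes, against 166 and 194 CPM in replicates 1 and 2) and in milk protein transcripts (5130 CPM over 6 genes, against 21 and 2.58 CPM). Where leaving it out changed a call of a member against the gland, or moved a called value by over 1.5 times, the value without it is given. Mammary gland replicate 3 stood apart from the other gland libraries in fibrillar collagens, as given below. Cells sorted were 30000, 70000 and 70000 for the tumor libraries and 9000, 30000, 9000 and 4500 for mammary gland.

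Collagen transcripts were abundant in tumor and mammary gland and rare elsewhere. They took 0.533%, 1.40% and 1.80% of all counts in tumor replicates 1, 2 and 3. They took 0.481%, 0.337%, 1.01% and 0.443% in mammary gland replicates 1 to 4, so that the tumor and gland ranges overlapped. In the 24 libraries of other tissues the share was 0.0132% to 0.0280%. In 25 of the 40 members that passed the filter on low counts, each of the 7 tumor and gland libraries was above each of the 24 others, as it was in 13.8% of all genes tested. The filter took all 31 libraries, so many members passed it only through tumor or gland, and this count is a description. In bulk libraries fewer cells of a type and less RNA per cell cannot be told apart.

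**Figure D1:**
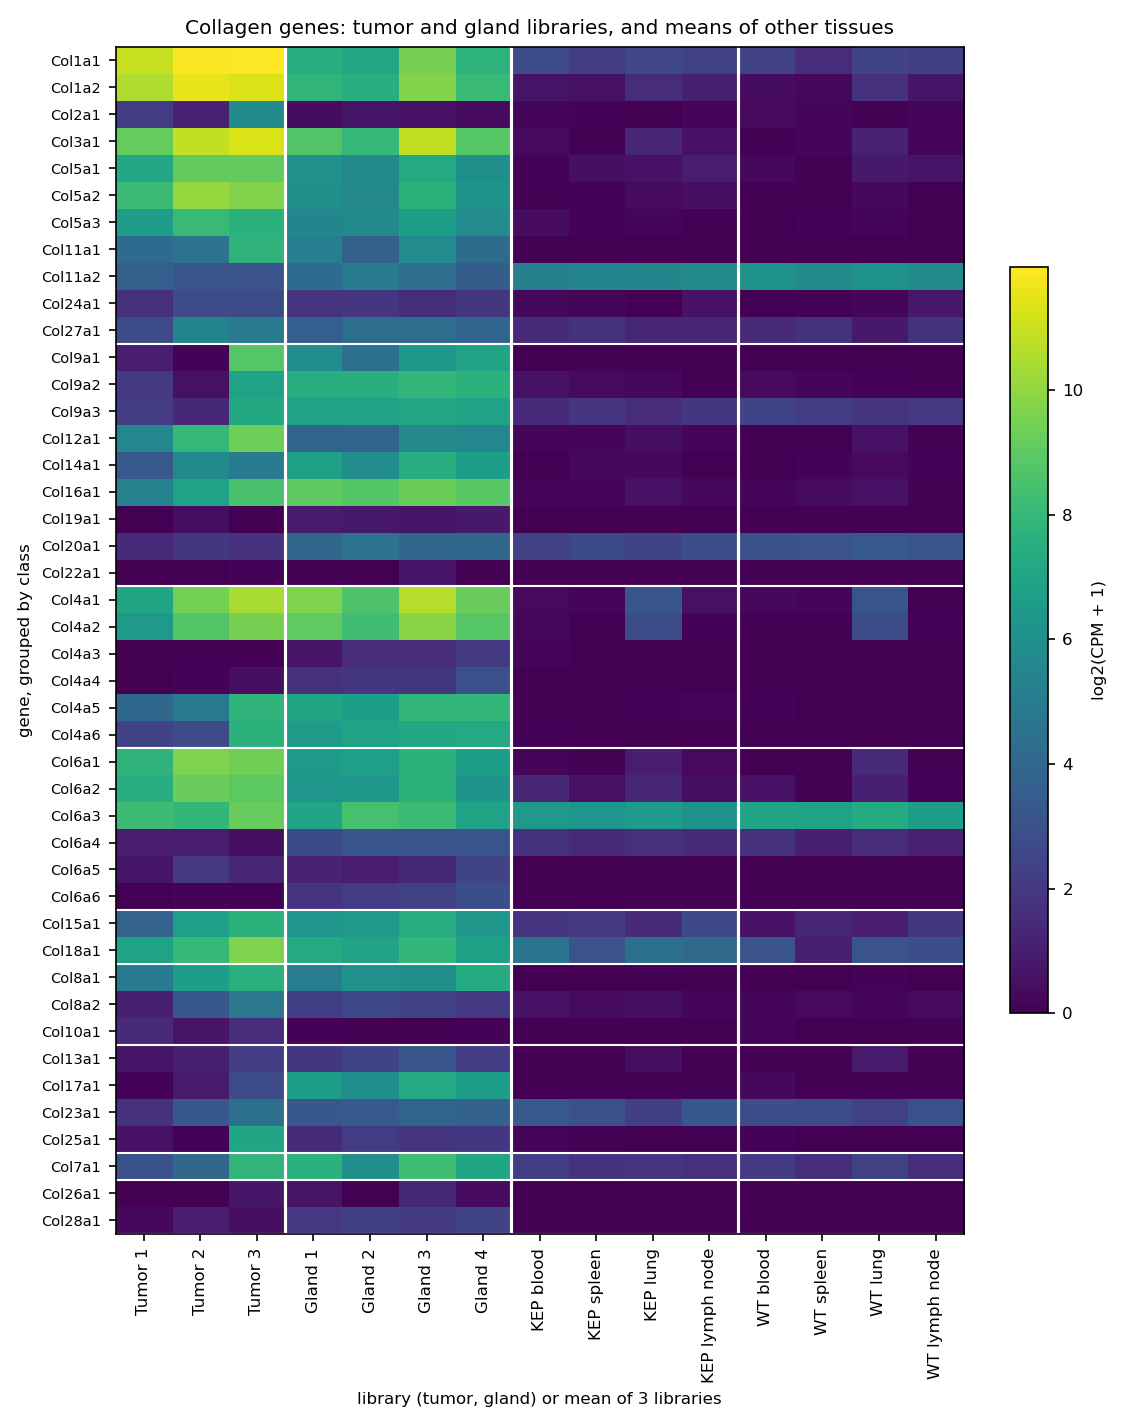
Level of each of the 44 collagen genes (rows, grouped by class from fibril-forming at the top) as log2(CPM + 1) in the 3 tumor and 4 mammary gland libraries and as means of 3 libraries for the other tissues. Most genes are bright in tumor and gland and dark elsewhere; Col11a2, Col6a3, Col20a1 and Col23a1 are among the exceptions, and tumor replicate 3 is bright for Col9a1, Col2a1 and Col25a1.

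The make-up of the collagen transcripts differed between tumor and gland more than their total did. Each gene's CPM was divided by the length of its principal transcript, and each class was taken as a share of the summed collagen level per length. The 11 fibril-forming genes made up 78.3%, 71.8% and 57.2% in tumor replicates 1 to 3, and 22.2%, 20.8%, 39.6% and 23.4% in mammary gland replicates 1 to 4. Every tumor library was above every gland library (69.1 ± 10.8% against 26.5 ± 8.82%, mean ± SD, n = 3 and 4). The 6 basement membrane genes of type IV collagen made up 3.56%, 7.12% and 11.6% in tumor and 29.3%, 21.6%, 25.1% and 26.2% in gland, again without overlap. The classes are parts of 1 total, so a larger fibril-forming share lowers the other shares. In CPM the main type IV genes, Col4a1 and Col4a2, overlapped between tumor and gland and were not called. The 9 fibril-associated genes made up 1.55%, 2.20% and 10.4% in tumor and 29.4%, 31.9%, 17.9% and 30.7% in gland, with tumor replicate 3 the closest to the gland. Col1a1, Col1a2 and Col3a1 were the leading genes per length in all 3 tumor libraries. In the gland the first place went to Col4a1 in replicate 1, to Col16a1 in replicates 2 and 4, and to Col3a1 in replicate 3.

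**Figure D2:**
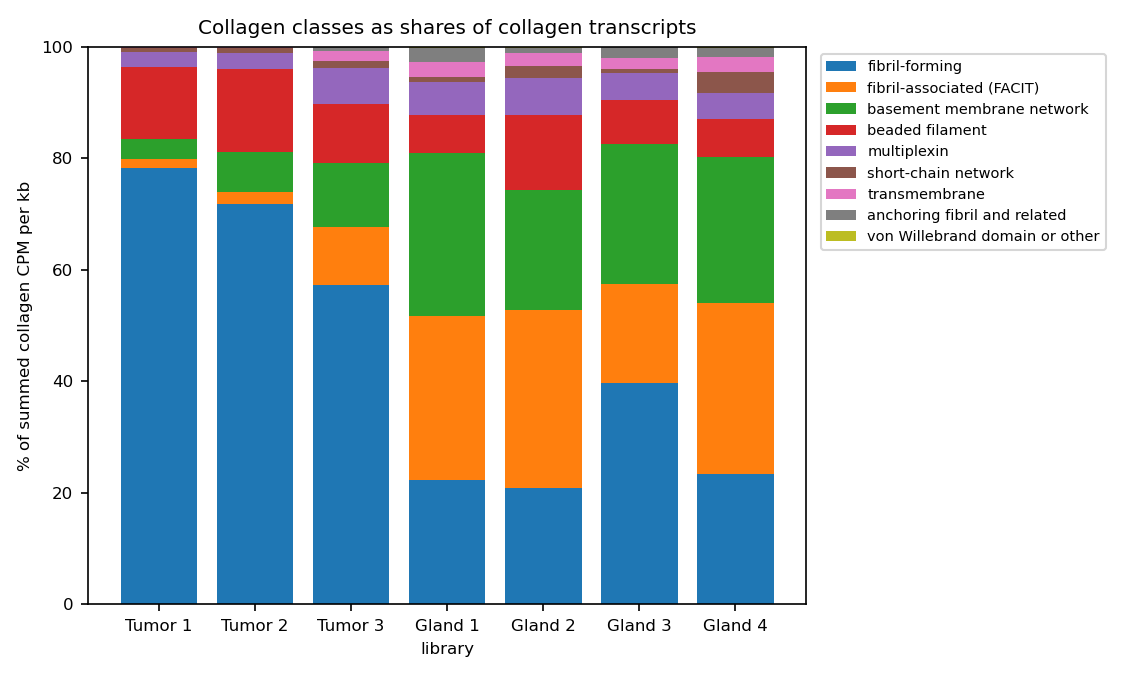
Stacked bars give each collagen class as a percent of the summed collagen CPM per kb in each tumor library (left) and mammary gland library (right). Fibril-forming genes fill 57.2% to 78.3% of the tumor bars and 20.8% to 39.6% of the gland bars.

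Col1a1, Col1a2 and Col3a1 were the most abundant members called higher in tumor, with Col1a1 at 3270.4 ± 1105 CPM in tumor and 315 ± 275 CPM in mammary gland (SD, n = 3 and 4). Col16a1, Col9a2, Col14a1 and the hemidesmosome gene Col17a1 were, by their gland level, the most abundant members called lower. In the comparison of tumor with mammary gland, 40 of the 44 members passed the filter on low counts, and 12 were called higher and 11 lower (edgeR quasi-likelihood test, Benjamini-Hochberg adjusted p under 0.05 over 15202 genes). This is 57.5% of the members tested, against 53% of all genes (23.5% higher and 29.5% lower), and a share so near that of all genes is no result about collagens. The median log2 fold change was -0.01 over the members and -0.10 over all genes. By class, 7 of 11 fibril-forming genes were called higher and 1 lower, 2 of 6 beaded filament genes higher and 2 lower, 1 of 7 fibril-associated genes higher and 4 lower, and 0 of 6 basement membrane genes higher and 2 lower. In 6 members every tumor library was above every gland library, and in 10 every tumor library was below; among all genes these shares were 14% and 24.8%. Without tumor replicate 3 the counts were 9 higher and 19 lower, and without gland replicate 3 they were 13 and 10. In a fit of these 7 libraries alone they were 9 and 7. That fit gave larger adjusted p than the main fit, whose values are given below. It was 0.0123 for Col1a1, 0.0311 for Col12a1 and 0.0147 for Col17a1. Scaling the libraries to the 10 T cell genes gave 1 higher (Col2a1) and 28 lower, a scaling under which the median over all genes was -3.41, against -0.10 with the usual one.

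**Figure D3:**
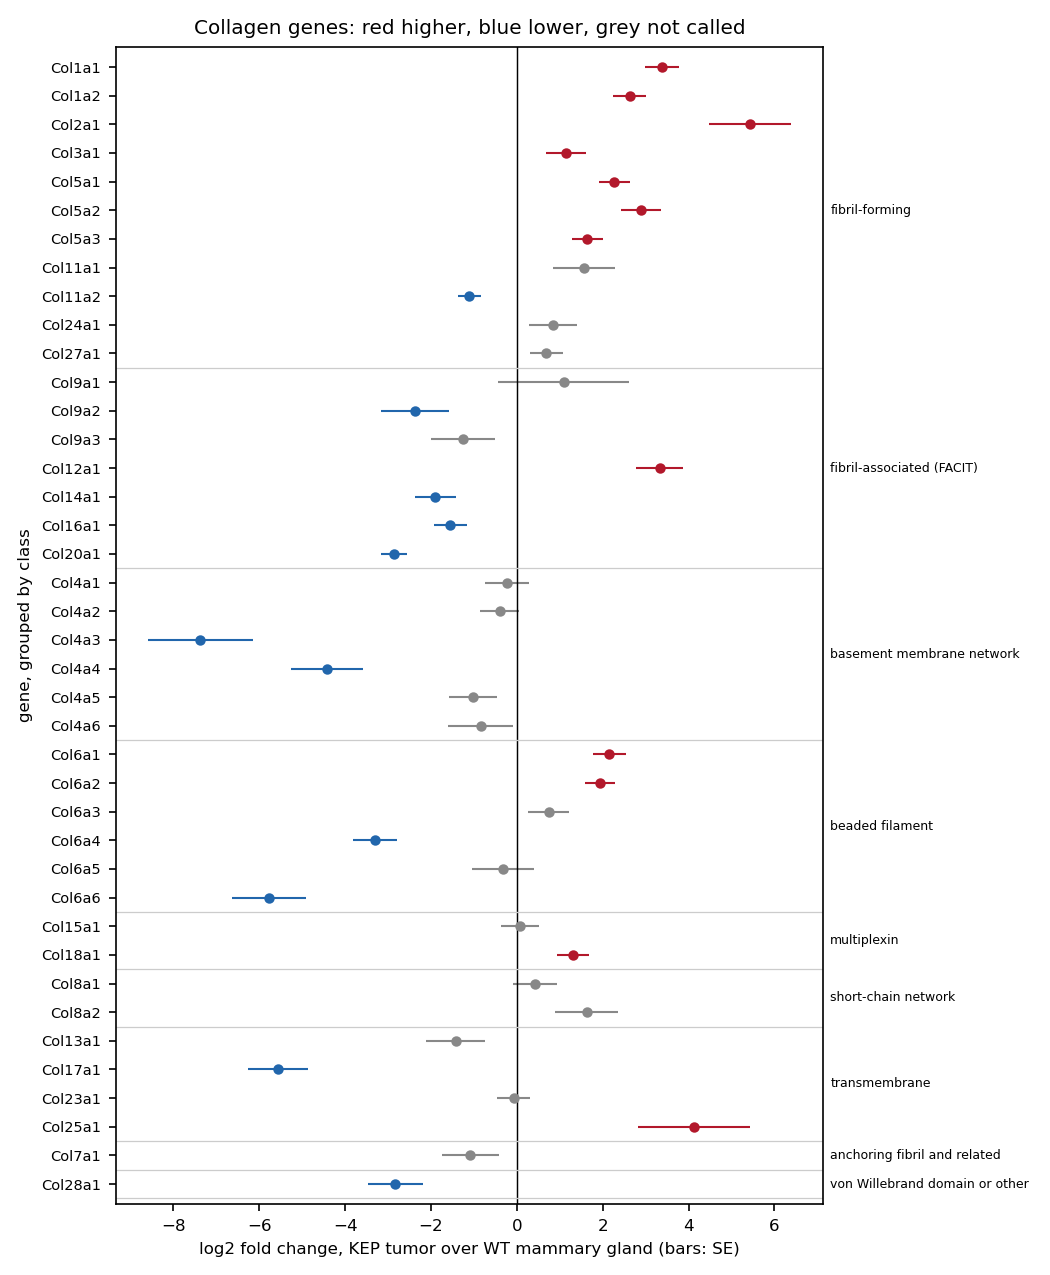
Log2 fold change of tumor over mammary gland with its SE (x axis) for the 40 collagen genes tested (y axis, by class). Red points are the 12 genes called higher, blue the 11 called lower and grey those not called; 7 of the 11 fibril-forming genes are red, and Col9a1 and Col25a1 have the widest bars.

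Type I collagen, the main collagen of fibrous tissue, is made of the chains of Col1a1 (chromosome 11, 94936224 to 94953042 on GRCm38, as all gene positions here) and Col1a2 (chromosome 6, 4504814 to 4541543). Col1a1 stood at 1999, 3806 and 4006 CPM in tumor replicates 1 to 3, against 179, 141, 726 and 214 CPM in mammary gland replicates 1 to 4. All tumor libraries were above all gland libraries, of which replicate 3 was the highest (log2 fold change 3.38, SE 0.39, adjusted p = 2.75e-07). Col1a2 stood at 1481, 2918 and 2616 CPM in tumor, against 228, 189, 833 and 263 CPM in gland (2.63, SE 0.38, adjusted p = 5.37e-06), likewise without overlap. The chains were not in the same proportion: the level per length of Col1a1 was 1.22, 1.18 and 1.38 times that of Col1a2 in tumor, and 0.708, 0.673, 0.785 and 0.733 times in gland. These ratios are described only.

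Col3a1 (chromosome 1, 45311538 to 45349706) encodes the chain of type III collagen, which forms fine fibrils beside type I. It stood at 566, 1854 and 2471 CPM in tumor, against 417, 252, 1846 and 447 CPM in gland. The groups overlapped, since gland replicate 3 was level with tumor replicate 2. The call (1.14, SE 0.47, adjusted p = 0.0433) was lost in 9 of 15 other settings. These included leaving out tumor replicate 2, tumor replicate 3 (0.70, adjusted p = 0.232) or gland replicate 1, 2 or 4, while without gland replicate 3 the value was 2.16. Exons of Col3a1 overlap the gene model Gm47302 on the same strand, so its count is uncertain. Per length, Col3a1 was at 0.302, 0.519 and 0.658 times the level of Col1a1 in tumor and at 2.48, 1.90, 2.71 and 2.23 times in gland.

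The chains of type V collagen, which joins type I fibrils and limits their width, were all called higher. Col5a2 (chromosome 1, 45374321 to 45503282, next to Col3a1) stood at 281, 1067 and 830.5 CPM in tumor, against 63.0, 48.6, 207 and 71.9 CPM in gland (2.89, SE 0.46, adjusted p = 4.79e-05). Col5a1, whose exons overlap 2810430I11Rik and Gm13372 on the other strand, stood at 144, 539 and 551 CPM in tumor, against 65.1, 52.2, 161 and 61.9 CPM in gland (2.27, SE 0.36). Col5a3 stood at 102, 279.8 and 200.2 CPM in tumor, against 44.1, 52.4, 100.0 and 52.9 CPM in gland (1.64, SE 0.36). Tumor and gland did not overlap for Col5a2 and Col5a3, and for Col5a1 only tumor replicate 1 fell below gland replicate 3. The windows before Col5a1 and Col5a3 are printed above.

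The fibril genes known from cartilage, Col2a1 and Col11a1, were highest in tumor replicate 3. Col2a1, the main collagen of cartilage, stood at 3.44, 1.16 and 51.6 CPM in tumor, against 0.302, 0.604, 0.523 and 0.275 CPM in gland (5.43, SE 0.96, adjusted p = 5.58e-05; 2.40 and adjusted p = 0.00862 without tumor replicate 3). All tumor libraries were above all gland libraries. Col11a1, a partner of type II collagen in cartilage, stood at 17.1, 22.5 and 222 CPM in tumor, against 33.9, 12.3, 54.3 and 17.8 CPM in gland and was not called (1.55, adjusted p = 0.0859; -0.59 without tumor replicate 3). Col11a2, another chain of type XI collagen, went the other way at 11.2, 7.56 and 7.33 CPM in tumor, against 17.3, 29, 18.3 and 10.6 CPM in gland (-1.11, SE 0.27, adjusted p = 0.00156), with tumor replicate 1 above gland replicate 4. In a fit of the 7 libraries alone Col11a2 was not called (adjusted p = 0.0924). Col27a1, a minor fibril-forming chain, stood at 5.60, 40.9 and 28.6 CPM in tumor, against 11, 18.7, 18.5 and 14.2 CPM in gland and was not called (0.68). Col24a1, the remaining fibril-forming gene, ranged from 2.16 to 5.78 CPM in tumor and from 1.96 to 2.82 CPM in gland and was not called.

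**Figure D4:**
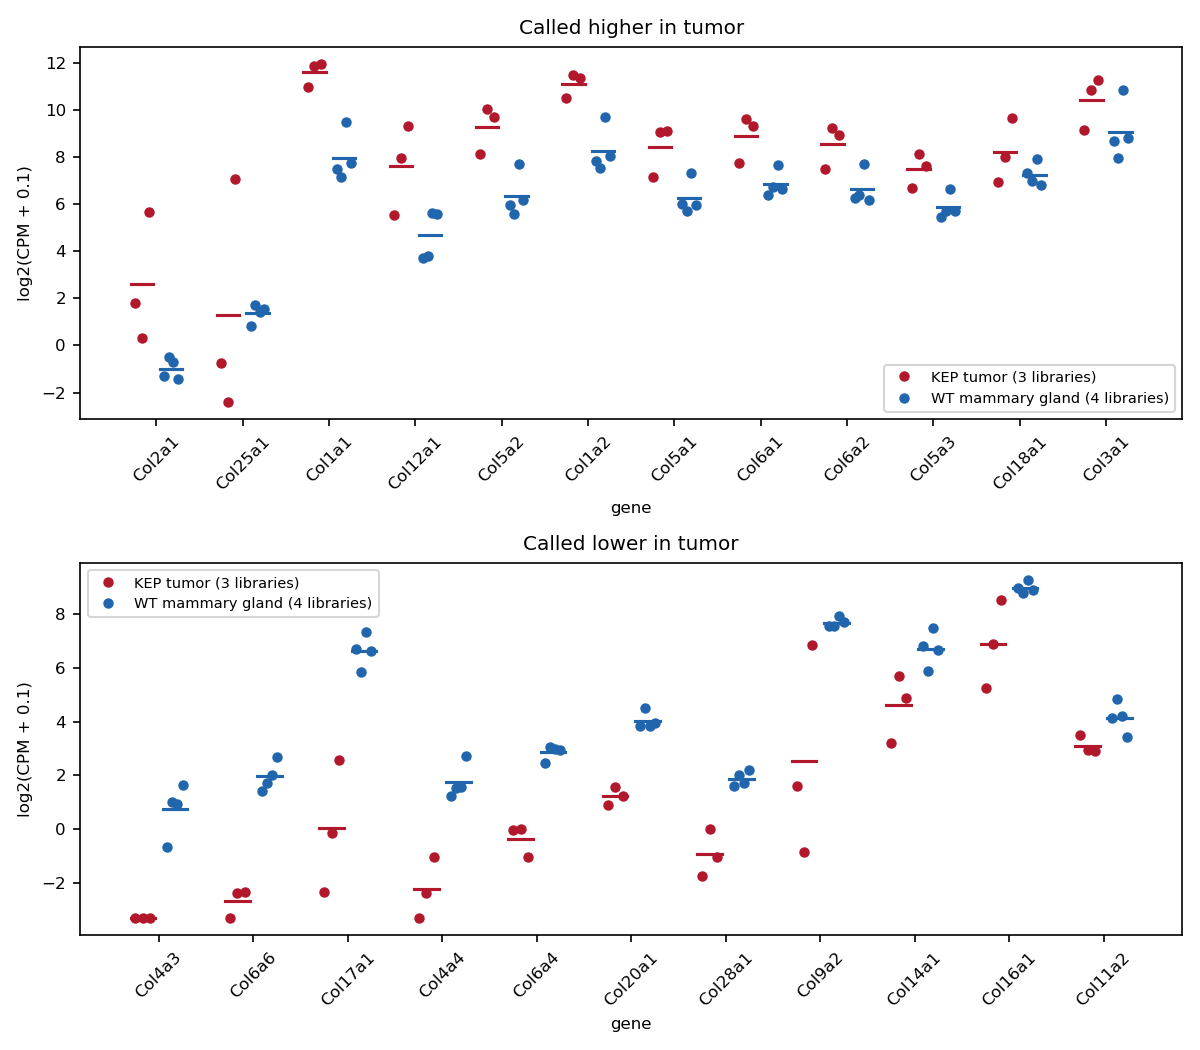
Each point is 1 library, as log2(CPM + 0.1), for the 12 genes called higher in tumor (top) and the 11 called lower (bottom); short lines are group means of the log values, and tumor stands left of mammary gland for each gene. Col25a1 is high in tumor replicate 3 alone, and Col4a3 is at 0 in all 3 tumor libraries.

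Type VI collagen forms beaded filaments around cells from the chains of Col6a1, Col6a2 and a further gene. Col6a1 (chromosome 10, 76708792 to 76726168) stood at 217, 792 and 652 CPM in tumor, against 84.9, 107, 205 and 101 CPM in gland, without overlap (2.15, SE 0.39, adjusted p = 0.000129). Col6a2, its neighbor on chromosome 10, stood at 183, 601 and 490.1 CPM in tumor, against 76.3, 83.5, 209 and 73.0 CPM in gland (1.94, SE 0.35), with gland replicate 3 above tumor replicate 1. The ratio per length of Col6a1 to Col6a2 was 1.14 to 1.28 in tumor and 0.945 to 1.33 in gland, so these neighbors kept a like proportion. Col6a3, the usual partner of these chains, stood at 296, 246 and 586 CPM in tumor, against 134, 362, 288 and 118 CPM in gland, and was not called (0.74, adjusted p = 0.202; 0.26 without tumor replicate 3). The genes Col6a4, Col6a5 and Col6a6, which encode alternatives to that chain, lie next to each other on chromosome 9 and did not move alike. Col6a4 stood at 0.884, 0.890 and 0.386 CPM in tumor, against 5.44 to 8.20 CPM in gland (-3.30, SE 0.52, adjusted p = 1.35e-05). Col6a6 was at 0, 0.0890 and 0.0964 CPM in tumor, against 2.57 to 6.33 CPM in gland (-5.77, SE 0.87, adjusted p = 0.000122). Both were lower in tumor without overlap, and exons of both overlap predicted genes on the other strand, among them Gm47575 and Gm38314. Col6a5 ranged from 0.589 to 2.94 CPM in tumor and from 0.950 to 4.54 CPM in gland and was not called (-0.32).

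The 6 genes of type IV collagen lie in 3 head-to-head pairs on the chromosomes. Col4a1 and Col4a2 (chromosome 8, 11198423 to 11312826 and 11312805 to 11449287), the general basement membrane pair, were not called. Col4a1 stood at 129, 704 and 1336 CPM in tumor, against 815, 397, 1566 and 601 CPM in gland (-0.23, SE 0.51; -1.03, adjusted p = 0.104 without tumor replicate 3). Col4a2 stood at 88.6, 432 and 732 CPM in tumor, against 526, 309.6, 922 and 454 CPM in gland (-0.40, SE 0.46; -1.09, adjusted p = 0.0572 without tumor replicate 3). The groups overlapped for both genes, tumor replicate 1 being the lowest of the 7 libraries. The exons of the pair overlap on opposite strands only within 11312805 to 11312826, so counts from that short stretch are uncertain. Exons of Col4a2 also overlap Gm15419 on the other strand. Col4a5 and Col4a6 on chromosome X encode chains of the epithelial and smooth muscle basement membrane. Col4a5 stood at 15.4, 30.3 and 217 CPM in tumor, against 130.3, 101, 236 and 243 CPM in gland (-1.02, adjusted p = 0.125; -2.96, adjusted p = 7.14e-07 without tumor replicate 3). Col4a6 stood at 4.42, 5.87 and 203 CPM in tumor, against 96.0, 118, 138 and 157 CPM in gland (-0.84, adjusted p = 0.365; -4.63, adjusted p = 1.8e-09 without tumor replicate 3). Tumor replicates 1 and 2 were below every gland library for these genes, while tumor replicate 3 was within the gland range for Col4a5 and above it for Col4a6. Col4a3 and Col4a4 on chromosome 1, chains known from kidney, lung and other specialised basement membranes, were low throughout. Col4a3 had no count in any tumor library and 0.529 to 3.03 CPM in gland, at least 19.3-fold lower in tumor against a floor of 3 counts over the group (adjusted p = 0.000495). Col4a4 stood at 0, 0.0890 and 0.386 CPM in tumor, against 2.27 to 6.54 CPM in gland (-4.43, SE 0.84, adjusted p = 0.000738; -5.99 without tumor replicate 3). Both were lower in every tumor library, and exons of Col4a3 overlap C430014B12Rik on the other strand.

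Among fibril-associated members, Col12a1 differed in direction from Col14a1 and Col16a1. Col12a1, which coats type I fibrils in dense tissue, stood at 47.0, 248 and 637 CPM in tumor, against 12.9, 14, 49.0 and 47.6 CPM in gland (3.32, SE 0.54, adjusted p = 2.38e-05; 2.24 without tumor replicate 3). Tumor replicate 1 was level with gland replicates 3 and 4. Col14a1, a related coat protein of fibrils, stood at 9.13, 52.6 and 29.6 CPM in tumor, against 112, 59.3, 182 and 102 CPM in gland (-1.90, SE 0.48, adjusted p = 0.00237). Col16a1 stood at 38.5, 120.6 and 367 CPM in tumor, against 505, 439.8, 625 and 485 CPM in gland (-1.55, SE 0.39, adjusted p = 0.00202; -2.70 without tumor replicate 3). For the last pair all tumor libraries were below all gland libraries, and neither gene was called in a fit of the 7 libraries alone (adjusted p = 0.0646 and 0.138). Col20a1 stood at 1.77, 2.85 and 2.22 CPM in tumor, against 14.3, 22.4, 14.3 and 15.5 CPM in gland (-2.86, SE 0.30, adjusted p = 7.24e-08). It too was lower without overlap, and its exons overlap the model BX649560.1 on the same strand, so its count is uncertain.

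Type IX collagen, which covers the surface of cartilage fibrils, is made of the chains of Col9a1, Col9a2 and Col9a3. Col9a2 stood at 2.95, 0.445 and 117 CPM in tumor, against 188, 189, 243 and 208 CPM in gland (-2.37, SE 0.80, adjusted p = 0.0154; -6.96 without tumor replicate 3). Col9a3, whose exons overlap Tcfl5 on the other strand, stood at 3.34, 1.51 and 154 CPM in tumor, against 122, 120.2, 143 and 119 CPM in gland (-1.25, adjusted p = 0.166; -5.72, adjusted p = 1.98e-11 without tumor replicate 3). Col9a1 stood at 0.884, 0.0890 and 452 CPM in tumor, against 57.8, 19.6, 81.8 and 125 CPM in gland and was not called (1.09, adjusted p = 0.579), but reversed to -7.21 (adjusted p = 0.000338) without tumor replicate 3. All 3 genes were under 5 CPM in tumor replicates 1 and 2, and in tumor replicate 3 Col9a2 was below the gland range and Col9a1 and Col9a3 above it. Leaving out tumor replicate 1 ended the call of Col9a2. Col19a1 and Col22a1, the last fibril-associated members, did not pass the filter and reached at most 0.832 CPM in these 7 libraries.

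Among the multiplexins, which lie at basement membranes and release fragments such as endostatin, Col18a1 was called higher and Col15a1 was not. Col18a1 (chromosome 10, 77052178 to 77166548), the gene of endostatin, stood at 123, 259 and 806 CPM in tumor, against 159, 127, 242 and 112 CPM in gland (1.31, SE 0.38, adjusted p = 0.00623). The groups overlapped, and without tumor replicate 3 the value was 0.25 (adjusted p = 0.494). Col15a1, whose exons overlap Gm12426 on the other strand, stood at 12.4, 108 and 209 CPM in tumor, against 76.4, 88.5, 175.4 and 79.7 CPM in gland (0.06, SE 0.45; -0.81, adjusted p = 0.130 without tumor replicate 3). Of the short-chain network genes, Col8a1, a collagen of vessel walls, stood at 30.0, 100.2 and 191 CPM in tumor, against 31.8, 65.5, 59.2 and 163 CPM in gland (0.42; -0.30, adjusted p = 0.654 without tumor replicate 3). Col8a2 stood at 1.08, 8.90 and 26 CPM in tumor, against 3.63, 5.01, 3.92 and 2.96 CPM in gland (1.63, adjusted p = 0.0641; 0.36, adjusted p = 0.695 without tumor replicate 3). Neither passed the test, and their groups overlapped. Col10a1, a marker of hypertrophic cartilage, did not pass the filter and stood at 1.67, 0.534 and 1.83 CPM in tumor, against at most 0.0756 CPM in gland. Exons of Col10a1 overlap Nt5dc1 on the other strand.

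Among the transmembrane collagens, Col17a1 had the clearest difference. It encodes the collagen of hemidesmosomes, the junctions that fix epithelium to its basement membrane. Col17a1 stood at 0.0982, 0.801 and 5.78 CPM in tumor, against 103, 58.2, 161 and 98.9 CPM in gland, without overlap (-5.56, SE 0.70, adjusted p = 2.67e-06; -7.80 without tumor replicate 3). Col25a1, a membrane collagen known from neurons, stood at 0.491, 0.0890 and 135 CPM in tumor, against 1.66, 3.19, 2.62 and 2.82 CPM in gland. Its call as higher (4.13, SE 1.30, adjusted p = 0.0141) rested on tumor replicate 3 alone and reversed to -3.14 (adjusted p = 0.00732) without it. Col23a1 stood at 2.26, 8.54 and 20.3 CPM in tumor, against 8.47, 9.33, 13.7 and 12.3 CPM in gland (-0.08, adjusted p = 0.885). Col13a1 ranged from 0.589 to 3.47 CPM in tumor and from 2.87 to 7.78 CPM in gland (-1.43, adjusted p = 0.102). Neither of these was called, but without tumor replicate 3 both were lower, Col23a1 at -1.02 (adjusted p = 0.0198) and Col13a1 at -2.46 (adjusted p = 0.0128).

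Col7a1, the collagen of anchoring fibrils under epithelium, stood at 7.17, 15.1 and 226 CPM in tumor, against 196, 62.3, 307 and 136 CPM in gland. It was not called (-1.08, adjusted p = 0.171), but was lower at -3.98 (adjusted p = 4.04e-07) without tumor replicate 3; its exons hold the microRNA gene Mir711. Col28a1, which resembles type VI collagen in its von Willebrand domains, stood at 0.196, 0.890 and 0.386 CPM in tumor, against 2.95 to 4.47 CPM in gland (-2.84, SE 0.64, adjusted p = 0.00352), without overlap. Col26a1 did not pass the filter and reached at most 1.50 CPM in the 7 libraries.

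Of the markers of other cells, fibroblast sums overlapped between tumor and gland, macrophage sums were higher in every tumor library, and endothelial, pericyte, epithelial, adipocyte, milk protein and Schwann cell sums were lower in every tumor library. Over 8 genes such as Pdgfra and Dcn, fibroblast transcripts summed to 154, 598 and 357 CPM in tumor and to 315, 489, 596 and 497 CPM in gland, so the ranges overlapped; none of the 8 was at 0. They summed to 0.541 to 11.4 CPM in the other tissues. Over 7 genes, endothelial transcripts summed to 125 to 420 CPM in tumor and 732 to 1136 CPM in gland. The tumor range overlapped that of the other KEP libraries (164 to 259 CPM) and other WT libraries (157 to 303 CPM). Of these genes, Pecam1 alone stood at 91.2 to 158 CPM in tumor and at 157 to 252 CPM in the other WT libraries. Pericyte and smooth muscle transcripts, also over 7 genes, summed to 93.5 to 453 CPM in tumor and 2027 to 3462 CPM in gland. Over 9 genes, epithelial transcripts summed to 166 to 2017 CPM in tumor and 4958 to 6666 CPM in gland, Krt5 being at 0 in tumor replicate 1. Over 7 genes, adipocyte transcripts summed to 13.1 to 64.9 CPM in tumor, where Plin1, Cidec and Lep were at 0 in every library, and to 570 to 868 CPM in gland. Milk protein transcripts summed to 2.58 to 5130 CPM in tumor and 5702 to 36005 CPM in gland, with Csn1s2a, Wap and Lalba at 0 in tumor replicate 2. Macrophage transcripts, over 7 genes, summed to 393, 2791 and 578 CPM in tumor and 41.0 to 79.2 CPM in gland. Schwann cell transcripts, over 5 genes, summed to 115 to 210.3 CPM in tumor and 505 to 725 CPM in gland. The same 5 genes summed to 282 to 387 CPM in the other KEP and 309 to 503 CPM in the other WT libraries. Every tumor library was thus below the sorted cells of the other tissues, and the sum is not particular to Schwann cells here. The part of these cells in the collagen differences was not tested.

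The genes that modify, process, link and degrade collagen were read from 8 lists, whose counts stand beside the 23.5% of all genes called higher and the 29.5% called lower. The counts and medians describe the lists and were not tested against other genes. Of 15 genes of prolyl and lysyl modification, 7 were higher in tumor and 1 lower. P4ha1, a chain of prolyl 4-hydroxylase that stabilises the helix, stood at 250.2, 209.5 and 172.6 CPM in tumor, against 35.5, 89.6, 39.6 and 33.7 CPM in gland (2.09, SE 0.23). P4ha3 (4.67) and the lysyl hydroxylase gene Plod2 (2.17) also rose, and Colgalt2, a galactosyltransferase of collagen, fell by 3.80 on the log2 scale. Of 7 genes of folding and export, 3 were higher, such as the transcription factor gene Creb3l1 (1.50) and the chaperone gene Fkbp10 (1.43), and 1 was lower, the export factor gene Mia3 (-0.33). Of 7 tested of 8 genes of propeptide processing, 4 were higher, among them Adamts14 (3.13), Pcolce (1.97) and Adamts2 (1.86), and 2 were lower, among them Tll1 (-2.25).

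All 5 genes of the lysyl oxidase family, which cross-link collagen, were called higher, with a median log2 fold change of 3.18 over the list, against -0.10 over all genes. Lox stood at 146, 287 and 111 CPM in tumor, against 11.8, 17.4, 26.9 and 17.9 CPM in gland (3.29, SE 0.32, adjusted p = 1.14e-07). Loxl2 (3.18), Loxl4 (3.22) and Loxl3 (2.09) were the next by p. Of 14 genes of collagen degradation, 9 were higher and 1 lower (median 3.80). Mmp13, a collagenase, stood at 180.4, 115 and 626 CPM in tumor and at 0.0688 to 0.262 CPM in gland (10.93, SE 0.69, adjusted p = 6.21e-09). Mmp10 (9.23), Mmp12 (6.59) and the inhibitor gene Timp1 (3.57) rose too.

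Of 14 other genes of the fibril-associated matrix, 4 were higher and 5 lower. Fn1, the gene of fibronectin, stood at 2051.3, 5016 and 3356 CPM in tumor, against 175, 175, 484 and 199 CPM in gland (3.75, SE 0.50), and Thbs2 rose as well (3.32). Prelp (-4.01) and the tenascin gene Tnxb (-4.09) fell. Of 15 partners of collagen in basement membranes, 3 were higher and 8 lower, with a list median of -1.32. Lama1, a laminin chain, stood at 0.295, 2.22 and 13.2 CPM in tumor, against 187, 120.2, 234 and 269 CPM in gland (-5.28, SE 0.73). Lamc3 (-4.53), Lama3 (-3.39) and Lamb2 (-2.40) fell with it. Of 10 receptors of collagen, 3 were higher and 4 lower, about the shares of all genes: the inhibitory receptor gene Lair1 (4.29) and the uptake receptor gene Mrc2 (3.78) rose, and Ddr1 (-2.07) and the integrin gene Itga2 (-1.15) fell.

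Against blood, spleen, lung and lymph node of KEP mice, 34 of 40 members were called higher in tumor and 3 lower, where 67% of all genes were called (39% higher and 28% lower). In 29 members every tumor library was above every other KEP library and in 3 below, against 19.6% and 12.2% of all genes. In mammary gland, 38 members were called higher and 1 lower than in the other WT tissues, where 80.5% of all genes were called (46.4% higher and 34.1% lower). In 37 members every gland library was above every other WT library and in 1 below, against 32.6% and 18.6% of all genes. For 22 of the 40 members these counts were set by the filter: they passed it only through tumor or gland, and 20 of them were called higher in tumor and 21 in gland, where 85.2% and 96.3% of all 2377 genes of that kind were. The other 18 members also passed the filter among the 24 libraries alone. Of these, 14 were called higher and 3 lower in tumor (30.4% higher and 33.2% lower among all 12825 such genes), and 17 were called higher and 1 lower in gland (37.2% and 40.3%). These counts are a description of the members. Without tumor replicate 3, the calls in tumor of Col4a4 (1.91, adjusted p = 0.189) and Col9a3 (0.13, adjusted p = 0.756) were lost. The title date as a block kept every call among the members that could be tested, 29 in tumor and 37 in gland. That fit left out gland replicate 4, whose title date no other library shared.

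The sizes were large because the other tissues were near 0. Col1a1 averaged 3270.4 CPM in tumor and 4.58 CPM in the other KEP libraries, a ratio of 715, and 315 CPM in gland and 3.49 CPM in the other WT libraries, a ratio of 90.3. Col3a1 averaged 1630.5 CPM in tumor and 0.569 CPM in the other KEP libraries, and 740.3 CPM in gland and 0.360 CPM in the other WT libraries. Col4a1 averaged 723 CPM in tumor and 2.19 CPM in the other KEP libraries, where its highest value, 15.1 CPM, was in KEP lung replicate 2. Col19a1, Col22a1 and Col26a1 had no count in any of the 24 libraries, and Col9a1 had 2 counts in all of them.

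Of the 44 members, 13 averaged at least 1 CPM over the 24 other libraries, not all of them in every tissue. Col4a1 and Col4a2 did so through lung, where Col4a1 averaged 7.93 CPM in KEP and 7.72 CPM in WT mice, against 0.0298 to 0.437 CPM in the other tissues. Col6a3 was the most abundant of them, from 41.3 to 169 CPM, and Col11a2 the next, from 30.4 to 77.9 CPM. Col11a2 averaged 8.70 CPM in tumor and 42.2 CPM in the other KEP libraries (-2.27, SE 0.26, adjusted p = 3.55e-08), and 18.8 CPM in gland and 60.2 CPM in the other WT libraries (-1.66, SE 0.21, adjusted p = 9.90e-08). It was thus the only member called lower in both comparisons. T cell transcripts were lower in the same gland libraries and in tumor replicates 2 and 3, and scaling to the 10 T cell genes turned the gland value to 2.28. In tumor replicate 1, whose T cell sum was 6107 CPM, Col11a2 stood at 11.2 CPM, against 30.4 to 64.3 CPM in the other KEP libraries. The part of T cell content in these differences was not tested. Col20a1 and Col6a4 were lower in tumor than in the other KEP tissues (-1.14 and -1.43; Col6a4 was not called without tumor replicate 3, at -1.12 and adjusted p = 0.0673) and higher in gland than in the other WT tissues (1.10 and 2.28). Col23a1 averaged 10.4 CPM in tumor and 7.12 CPM in the other KEP libraries and was not called there.

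Between KEP and WT mice few members were called in any of these 4 tissues, and Col18a1 stood higher in KEP mice in each. In blood it stood at 23.1, 20.1 and 25.7 CPM in KEP mice, against 9.68, 4.00 and 8.30 CPM in WT mice (1.64, SE 0.47, adjusted p = 0.0475). In spleen it stood at 5.19, 8.66 and 8.20 CPM in KEP mice, against 1.41, 0.857 and 0.822 CPM in WT mice (2.85, SE 0.62, adjusted p = 0.0303). These 2 calls were lost when any 1 of the libraries compared was left out. In lung it stood at 17.5, 23.7 and 19.1 CPM in KEP mice, against 6.87, 7.48 and 7.45 CPM in WT mice (1.46, adjusted p = 0.0908). In lymph node it stood at 19.9, 10.6 and 19.7 CPM in KEP mice, against 6.07, 7.87 and 5.03 CPM in WT mice (1.41, adjusted p = 0.583). Every KEP library was above every WT library in each of the 4 tissues. In a fit of the 24 libraries of these tissues alone, chosen after the data were seen, Col18a1 was called in all 4, with adjusted p = 0.000219 in blood, 1.12e-05 in spleen, 0.000774 in lung and 0.00857 in lymph node. Epithelial transcripts moved with it: over 9 genes they summed to 24.2 to 42.5 CPM in KEP and 4.78 to 11 CPM in WT blood, 14.7 to 24.7 and 8.36 to 10.2 CPM in KEP and WT spleen, 20.6 to 25.8 and 10.8 to 18.6 CPM in KEP and WT lung, and 17.8 to 19.6 and 12.5 to 14 CPM in KEP and WT lymph node. Macrophage transcripts, over 7 genes, were higher in every KEP library of spleen (15.6 to 24.7 CPM, against 6.60 to 7.89 CPM in WT mice) and of lymph node (8.46 to 9.27 CPM, against 4.93 to 5.65 CPM in WT mice). Over blood and lung the highest sum was 48.5 CPM in WT and 46.0 CPM in KEP mice, so KEP libraries were not all above WT libraries in both tissues. The mean macrophage sum over the 4 tissues was 24.4 CPM in KEP and 18.4 CPM in WT mice. Of the endothelial genes, Tek and Emcn were at 0 in every library of blood, spleen and lymph node. Cdh5, Kdr, Cldn5 and Egfl7 reached at most 1.02 CPM in these tissues, while Pecam1 stood at 157 to 237 CPM. In lung all of these endothelial genes had counts in every library. Cdh5 there stood at 4.07 to 21.8 CPM in KEP and at 10.6 to 15.8 CPM in WT mice. The part of these cells in the difference was not tested.

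**Figure D5:**
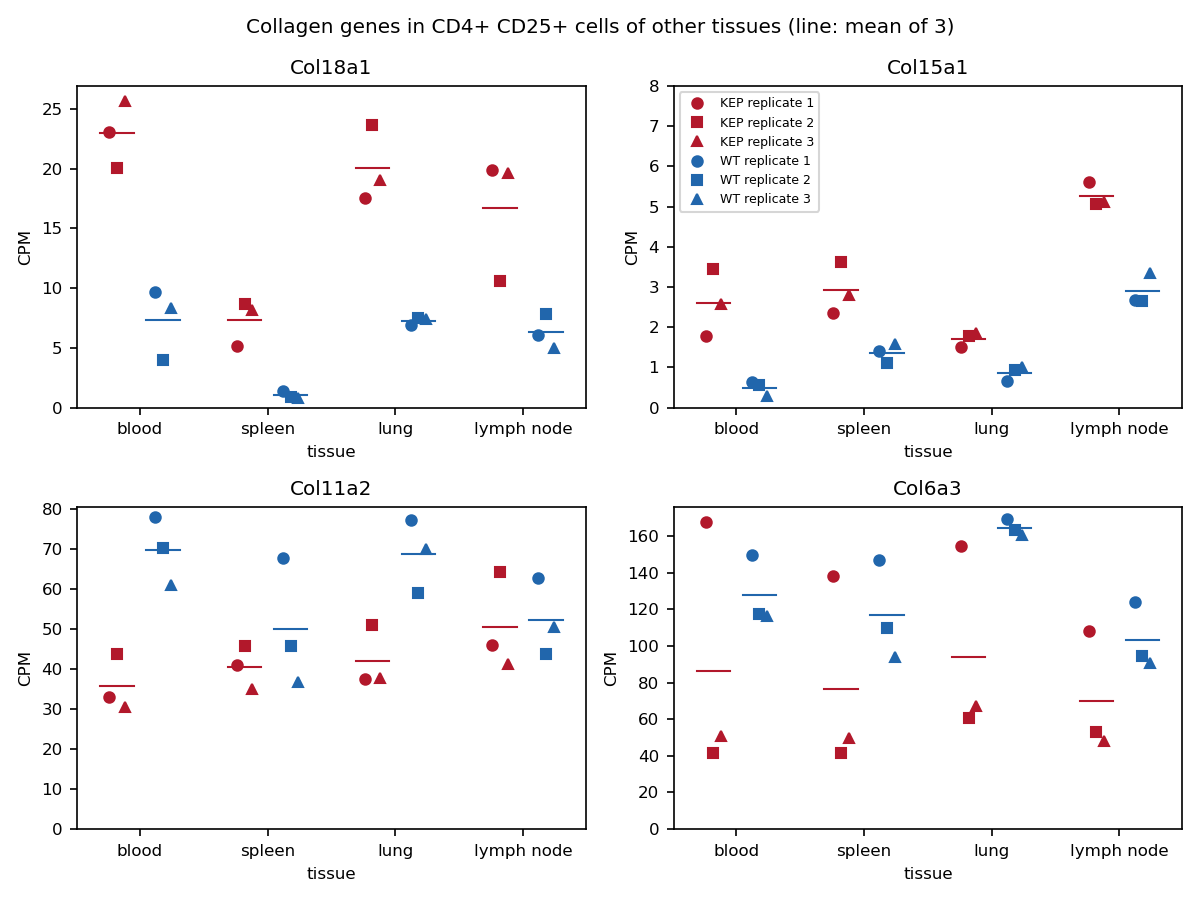
CPM of Col18a1, Col15a1, Col11a2 and Col6a3 in each library of blood, spleen, lung and lymph node, KEP left of WT, with lines at the mean of 3. For Col18a1 and Col15a1 the KEP and WT libraries do not overlap in any tissue, and for Col6a3 KEP replicate 1 is above KEP replicates 2 and 3 in each.

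The whole count of calls between KEP and WT was 1 higher and 1 lower in blood (4.32% of all genes called, 2.18% higher and 2.14% lower), 1 higher in spleen (0.447%, of which 0.434% higher and 0.0132% lower), none in lung (3.09%, 1.66% higher and 1.42% lower) and none in lymph node (0.0132%). At an unadjusted p under 0.05 there were 6 members in blood, 2 in spleen, 3 in lung and 1 in lymph node, of 40. Among all genes that share was 18.6% in blood, 7.99% in spleen, 19% in lung and 5.75% in lymph node. The members' shares were below it, but 22 of the 40 members passed the filter only through tumor or gland. These lower shares were thus set by the filter and are no result about collagens. With the 24 libraries alone 18 members were tested, and the counts were 2 higher and 2 lower in blood (20.2%), 2 higher in spleen (4.26%), 1 higher and 2 lower in lung (19.9%) and 1 higher in lymph node (1.12%). DESeq2 called 3 higher in blood, and 1 higher and 1 lower in lung. Of the 13 members that averaged at least 1 CPM in the 24 libraries, KEP libraries lay above WT libraries without overlap for 3 in blood (16% of all genes), 4 in spleen (12.3%), 3 in lung (14.5%) and 3 in lymph node (11.3%). They lay below for 3 in blood (12.8%), none in spleen (9.57%), 4 in lung (15.5%) and 1 in lymph node (9.85%). Col15a1, the other multiplexin, had every KEP library above every WT library in the 4 tissues. It averaged 2.60 CPM in KEP and 0.491 CPM in WT blood and was called there and in spleen with the 24 libraries alone (2.37, adjusted p = 0.000101, and 1.09, adjusted p = 0.0364). Col11a2 stood at 32.9, 43.8 and 30.4 CPM in KEP blood, against 77.9, 70.1 and 60.9 CPM in WT blood (-0.96, SE 0.27, adjusted p = 0.0424). This call was lost without WT replicate 1, 2 or 3 or without KEP replicate 1 or 3.

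Whether the KEP and WT difference of a member depended on the tissue was tested by an interaction over the 4 tissues. No member was called, and no gene at all (0% of 15202 genes; 544 genes, 1 of them a member, at an unadjusted p under 0.05 in edgeR); limma-voom and DESeq2 also called no member. In the 24 libraries alone, no member of 18 was called and 0.304% of all genes were. With the title date added to that fit as a block, a setting chosen after the data were seen, 1 member of 18 was called, Col11a2 (adjusted p = 0.00161), and 4.9% of 12825 genes. In the fit of all 31 libraries without a block, the log2 fold changes of Col11a2 were -0.96 in blood, -0.71 in lung, -0.30 in spleen and -0.05 in lymph node. Libraries of 1 date and genotype deviated together among these tissues in KEP mice (18 of 18 pairs correlated over 0.1), and 7 of 18 pairs did so in WT mice. Col27a1 lay above WT without overlap in KEP lung (1.43 ± 0.062 against 0.765 ± 0.308 CPM) and below WT in KEP lymph node (1.48 ± 0.151 against 2.42 ± 0.858 CPM). Its interaction p before adjustment was 0.196 in the fit of all libraries, 0.0538 in the 24 libraries alone and 0.0422 with the date block. None of these fits called it after adjustment. Col6a3 differed among KEP mice: replicate 1 stood at 167, 138, 155 and 108 CPM in blood, spleen, lung and lymph node. KEP replicates 2 and 3 stood at 41.3 to 67.4 CPM, and the WT libraries at 90.7 to 169 CPM. In lung every KEP library, replicate 1 included, was below every WT library. The KEP replicate 1 libraries share a date in their titles, and Col6a3 was called in none of the 4 comparisons (log2 fold changes -0.56 to -0.80).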

How the data were processed

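The deposited values were raw read counts per gene in 31 libraries from sorted cells, from a stranded TruSeq kit with 65-base single reads per the labels' protocols. TopHat, TopHat2 2.1.0, HTSeq and GRCm38 are named in the submitters' processing notes without a role; the annotation release and the strand setting of the counting are not given in the sources used here. Totals ran from 8154765 to 15258958 counts; intervals and floors cover counting error only. The groups came from the sample titles.

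The count table was fitted in edgeR 4.0.16 (R 4.3.3) with TMM factors, a minimum count of 10 and 1 model over all 31 libraries (15202 genes tested); contrasts used the quasi-likelihood test with Benjamini-Hochberg adjusted p under 0.05. CPM is the count over the TMM effective library size. All adjusted p-values are from this test unless named. Alternatives used limma 3.58.1 (voom), DESeq2 1.42.0, other scalings and filters, and libraries left out. The procedure was tested on simulated data. Lengths, positions and exon overlaps came from GENCODE M21 (24286 gene IDs found, all 44 members among them). Genes with overlapping exons are uncertain.

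The members, gene lists and tests were chosen with earlier results of these data known. Values per library are given for the 32 members averaging at least 5 CPM over the 7 tumor and gland libraries and mostly by range for the other 12, with up to 4 genes of smallest p per pathway list and a summed CPM per marker list. Libraries that share a title date were checked for pairing: tumor or gland deviations and those of other tissues of that date had a median correlation of -0.0025 over 12 tumor pairs (1 over 0.1) and -0.0033 over 12 gland pairs (0 over 0.1), so the dates were not taken as pairs there. Among blood, spleen, lung and lymph node, pairs of 1 date had a median correlation of 0.27 in KEP mice (18 of 18 over 0.1) and 0.09 in WT mice (7 of 18), so the interaction was also fitted with the date as a block. No date was shared between genotypes.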

Additional observations from a re-analysis of the deposited data

Results flagged for a closer look

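A result is listed here where 1 of the 4 mammary gland libraries lay far from the other gland libraries by Dixon's criterion; chance alone marks about 1 in 20 groups, and 13 of 50 were marked. Mammary gland replicate 3 was the highest for 9 genes: Col1a1 (726 CPM), Col1a2 (833 CPM), Col3a1 (1846 CPM), Col5a1 (161 CPM), Col5a2 (207 CPM), Col5a3 (100.0 CPM), Col6a2 (209 CPM), Col9a3 (143 CPM) and Col15a1 (175.4 CPM). Its share of fibril-forming genes, 39.6% of the summed collagen level per length, was marked as well. The genes marked in this library are mostly chains of the fibril-forming types I, III and V. Mammary gland replicate 2, which had the highest T cell sum of the gland libraries, was marked for Col20a1 (22.4 CPM) and for the share of beaded filament genes (13.5%). Mammary gland replicate 4 was marked for Col4a4 (6.54 CPM). Groups of 3 libraries were not examined this way, tumor among them.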

How the results depend on the processing

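Of 1991 single-gene values recomputed, 1867 kept direction and side of the threshold, 59 lost a call, 46 gained one and 19 reversed; a further 61 uncalled values changed sign. For tumor over gland, scaling to 10 T cell genes left 1 member higher and 28 lower and reversed Col1a1 (-0.27), Col1a2 (-1.02), Col3a1 (-2.42), Col5a1 (-1.15), Col5a2 (-0.69), Col5a3 (-1.81), Col6a1 (-1.23), Col6a2 (-1.52), Col6a3 (-2.23), Col8a1 (-2.74), Col15a1 (-3.06), Col18a1 (-1.74), Col24a1 (-2.22) and Col27a1 (-2.48). The median of all genes stood at -3.41 under that scaling. limma-voom reversed Col9a1 (-4.04) and Col25a1 (-0.31), and leaving out tumor replicate 3 reversed them too; over all single libraries left out Col9a1 ranged from -7.21 to 1.70 and Col25a1 from -3.14 to 4.74. The causes were not tested. Members lower numbered 7 with a minimum count of 50, 7 with the 7 libraries alone, 17 with limma-voom and 6 with DESeq2. Apart from the T cell scaling, 9 of the 12 higher calls held in every alternative, and 3 of 11 lower calls (Col17a1, Col20a1 and Col6a4) held in all.

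The T cell scaling gave 1 member lower for tumor against other KEP tissues and 0 for gland against other WT tissues, where Col11a2 reversed to 2.28. It gave 0 higher in spleen and blood and 0 lower in blood. For KEP over WT, members higher in spleen were 0 without a filter or with limma-voom and 2 with the 24 libraries. Those higher in lymph node were 1 with the libraries compared or the 24. Those in lung were 1 higher with either or with DESeq2, and 1 lower with a minimum count of 50 or DESeq2 and 2 with either fit of fewer libraries. Members higher in blood were 0 with RLE or upper-quartile factors, no filter or limma-voom, 2 with either fit of fewer libraries and 3 with DESeq2; those lower were 0 without a filter and 2 with either fit. The gland share of type IV genes was 30.3% without division by length and 29.9% with all exons (a setting chosen after seeing the data), against 25.5%.

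Leaving out 1 library gave 9 to 15 members higher and 10 to 19 lower in tumor over gland, 32 to 35 and 2 to 3 in tumor against other KEP tissues, and 36 to 39 and 1 to 1 in gland against other WT tissues. It gave 0 to 0 higher in spleen, 0 to 1 lower in lung, and 0 to 0 higher and 0 to 1 lower in blood. Collagen shares ranged from 0.964% to 1.60% in tumor and from 0.420% to 0.643% in gland, fibril-forming shares from 64.5% to 75.1% and from 22.1% to 28.4%, and type IV shares from 5.34% to 9.34% and from 24.3% to 26.9%. With the title date as a replicate block, 26 members were higher and 3 lower of 30 tested in tumor against other KEP tissues. In gland against other WT tissues, without gland replicate 4, they were 36 and 1 of 37. The block changed no call among the members tested. With the block in the 24 libraries of other tissues, 1 member (Col11a2) was called in the genotype by tissue interaction, against 0 without. Depth limited the 4 members below the filter and the genes under 1 CPM.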
